A study of Mus musculus with 4 samples.

Results

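The vector control line was compared with the parental line of a mouse mammary tumor model, gene by gene, over the 10939 of 21090 genes of the table whose mean RPKM (reads scaled to gene length and to the depth of the library) in the 2 lines was at least 1. The study asked what is lost when S100a4, a small calcium-binding protein linked to metastasis, is edited in tumor cells, and these are its 2 controls, so the comparison asks how far apart the controls lie. The parental line, titled 307 cell, came per the study from a metastatic mammary tumor of mice carrying mutant Pik3ca and mutant Trp53 alleles under MMTV-Cre, a recombinase driven in mammary epithelium, so all lines share those alleles. The vector control line, titled 307 cell vector control, is the same cell with the vector and an intact S100a4; the methods describe lentiviral infection with polybrene and puromycin selection for the edited lines, and whether the vector control carried a guide RNA is not stated. The 2 remaining libraries are an S100a4 exon 3 knockout, titled 307 cell, and an S100a4 exon 2 knockout, titled 308 cell, and are used here only to place each difference. Each line is 1 library, so no p-value can be given, the spread between cultures is unknown, and whether a line is 1 clone is not stated.

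S100a4 itself (chr3:90603771-90606045, plus strand, GRCm38) was at 3576 RPKM in the parental and 4741 in the vector control line, against 1136 after editing of exon 3 and 1105 after editing of exon 2, so both controls lay above both knockouts. All lines had the marker pattern of a mesenchymal tumor cell more than of an epithelium. Vim, the intermediate filament of mesenchymal cells, was at 2418, 2060, 1362 and 1721 RPKM in the parental, vector control, exon 3 and exon 2 libraries, the order kept for every set of 4 values that follows. Epcam and Cdh1, the defining adhesion molecules of epithelium, were under 1 RPKM in every library, and so were the basal keratins Krt5 and Krt14. The keratin genes Krt8 (69.0, 27.5, 78.9 and 54.8 RPKM) and Krt18 (60.2, 6.10, 27.3 and 19.1 RPKM) were measured in all 4. Markers of leukocytes (Ptprc, Cd3e, Csf1r) and of endothelium (Pecam1, Cdh5) were under 0.3 RPKM throughout, and 3 of 26 leukocyte markers passed the filter of a mean RPKM of at least 1. Of these Cd14, a receptor for bacterial lipopolysaccharide, was at 9.42, 34.5, 8.74 and 7.15 RPKM, Cd74, the invariant chain of MHC class II, at 2.02, 5.16, 16.7 and 1.01, and Cd68, a lysosomal protein abundant in macrophages, at 4.92, 3.36, 11.5 and 13.2. The first 2 were at least 2-fold higher in the vector control than in the parental line, and their part in the results was not tested. These are bulk libraries, in which fewer cells of a type and less RNA per cell cannot be told apart.

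Some background helps in reading the groups. Interferons are secreted proteins that act through surface receptors, Jak kinases and Stat and Irf transcription factors to switch on a shared set of genes, many of which sense or block viruses. Collagens are trimeric matrix proteins whose chains are hydroxylated, folded, trimmed outside the cell and cross-linked by lysyl oxidases, and in mammary tumors they are made mainly by fibroblasts and by tumor cells of mesenchymal type. Abcb1a and Abcb1b encode P-glycoprotein, an efflux pump that expels many drugs from cells.

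Most genes were close between the controls. The difference in log2(RPKM + 1), vector control minus parental, had a median of 0.16 and a standard deviation across genes of 0.67, and 9998 genes (91.4%) were less than 2-fold apart on that scale. A 2-fold difference or more was found for 941 genes, 378 higher in the vector control (3.46% of all genes) and 563 lower (5.15%). Bringing the 2 libraries to the same median ratio moved the median to 0.001. Then 252 were higher and 757 lower, and upper quartile scaling gave 268 and 713, so the balance of directions depends on the scaling. For that reason the medians of gene groups below are given relative to the median of all genes. Counting error was small beside these sizes: the whole 95% counting interval of the ratio lay past 2-fold for 292 of the higher and 502 of the lower genes.

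**Figure D1:**
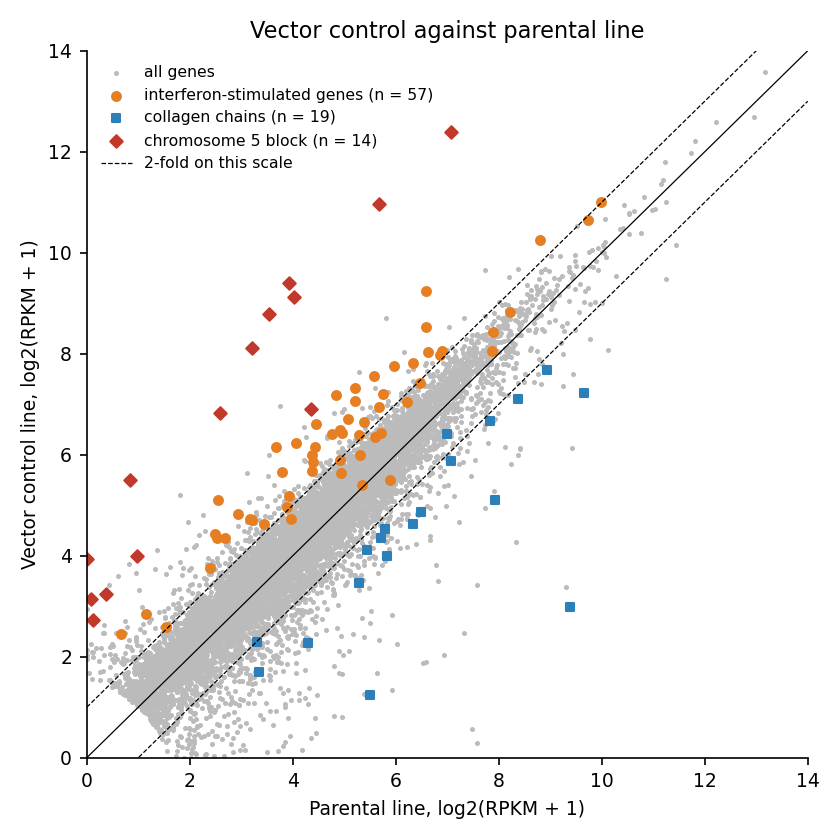
Each point is 1 of 10939 genes, with log2(RPKM + 1) in the parental line on the x axis and in the vector control line on the y axis; the solid line is equality and the dashed lines are 2-fold on this scale. The 14 genes of the chromosome 5 block lie above the upper dashed line, most of the 57 interferon-stimulated genes lie near or above it, and 18 of 19 collagen chains lie below the lower one.

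The largest differences in favour of the vector control sat side by side on chromosome 5. Of the 15 genes with the largest difference in favour of the vector control, 11 lay in a stretch that ran from Zfp804b to Grm3 (chr5:6769010-9725170, GRCm38, 2.956 Mb), and 9 of the first 10 did. All 16 genes of the table in this stretch had their highest value in the vector control. The 14 that passed the filter were each at least 2-fold above all 3 other libraries, where 1.69% of all genes were. Of these, Grm3, Abcb1a, Abcb4, Steap4, Rundc3b and Adam22 were under 1 RPKM in the parental line and passed only through the vector control. No other run of neighbouring genes past 2-fold was longer than 5. The ends of the stretch were set after the values were seen, so its counts partly follow from that choice. The genes named in it that are not among the 15 were also added after their values were seen.

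Sri (chr5:8046078-8069379, plus strand), which encodes the calcium-binding protein sorcin, was at 134, 5379, 180 and 136 RPKM. Dbf4 (chr5:8396973-8422716, minus strand), the activating subunit of the kinase that fires replication origins, was at 50.3, 1985, 32.0 and 71.7 RPKM. Crot (chr5:8966033-8997324, minus strand), a peroxisomal carnitine acyltransferase, was at 14.2, 674, 7.29 and 11.3 RPKM. Its difference was the largest in favour of the vector control on the log2 scale (5.48). In each of these genes the vector control stood alone, far above the parental line and both knockouts.

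The P-glycoprotein genes lie in the middle of the stretch. Abcb1b (chr5:8798147-8866315, plus strand) was at 10.6, 443, 7.45 and 7.14 RPKM, a ratio of 41.6 between vector control and parental line (95% counting interval 39.4 to 44.1). Its close relative Abcb1a was at 0.0919, 5.66, 0.156 and 0.0348 RPKM, and Abcb4, the phospholipid exporter of bile, at 0.0585, 7.89, 0.0890 and 0.0116 RPKM. Abcb1a and Abcb1b are related copies of one ancestral gene, and reads from stretches they share could have been counted for either.

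The other genes of the stretch varied in level but not in direction. Tmem243 (15.2, 560, 13.96 and 28.2 RPKM) overlaps Dmtf1 (19.4, 119, 7.33 and 13.8 RPKM), a transcription factor gene, so their reads may be shared, and Dmtf1 had the smallest difference of the 14 (2.56). Slc25a40, a mitochondrial carrier, was at 5.02, 113, 2.84 and 4.92 RPKM and 9330182L06Rik at 8.24, 276, 2.19 and 4.04 RPKM. Genes that the parental line hardly used were also higher. Rundc3b was at 0.792 RPKM in the parental and 44.2 in the vector control line, Adam22 at 0.980 and 15.04, and Steap4, a metalloreductase, at 0.294 and 8.47. Grm3, a glutamate receptor gene, had no read in the parental line or either knockout and at least 43 in the vector control, which is at least 17.6-fold higher against a floor of 3 reads per library. The remaining 2 genes fell below the filter: Zfp804b had 2 reads in the parental and 160 in the vector control line, and 4921511H03Rik had 0 and at least 3.

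Steap1, the nearest expressed gene before it and 1.02 Mb away, was at 113, 140, 185 and 131 RPKM, a ratio of 1.24. Farther out on that side several genes were also higher in the vector control, such as Rbm48, an RNA-binding protein gene at 1.83, 6.55, 2.03 and 3.60 RPKM. Its difference was 1.42 on the log2(RPKM + 1) scale, and those of Krit1 (0.98), Fam133b (0.82), Ankib1 (0.74) and Steap2 (0.61) were under 2-fold; these genes were named after their values were seen. Sema3d, the nearest after it and 2.658 Mb away, was at 4.29, 1.30, 0.365 and 0.820 RPKM. In all, the 16 genes took 313407 reads, or 1.84% of all reads in genes, in the vector control, against 10916 parental reads (0.0536%). The share was 0.0395% after editing of exon 3 and 0.0543% after editing of exon 2. Leaving the stretch out lowered the number of genes higher in the vector control from 378 to 364.

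**Figure D2:**
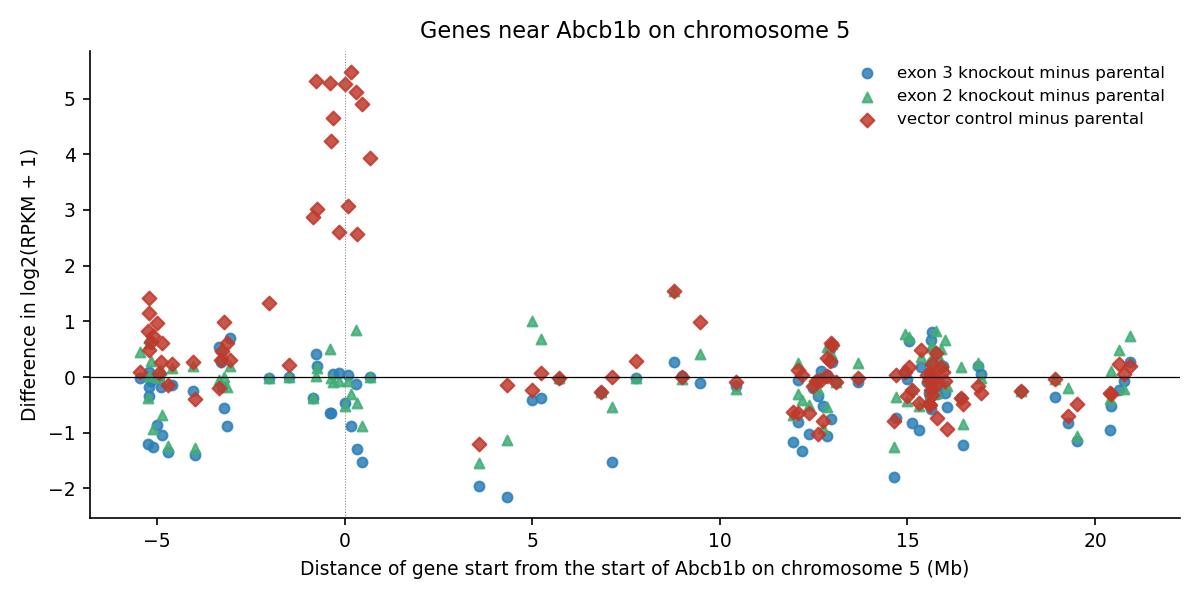
Genes of the start of chromosome 5 are placed by the distance of their start from that of Abcb1b in Mb (x axis), with the difference in log2(RPKM + 1) from the parental line on the y axis for the vector control (diamonds), the exon 3 knockout (circles) and the exon 2 knockout (triangles). The 14 vector control points of the stretch lie between 2.56 and 5.48, while its knockout points stay below 1.

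A second, smaller run lay on chromosome 19 and was noticed in the same way. Pip5k1b, a phosphoinositide kinase gene, was listed at 0 in the other 3 libraries and at 3.38 RPKM in the vector control, at least 22.5-fold higher than the floor in the parental line. Fam122a, which lies within Pip5k1b on the same strand, was at 3.15, 9.86, 2.89 and 1.15 RPKM, and Tmem252 (chr19:24674008-24682233) at 0.348, 9.70, 0.849 and 0.0806 RPKM. In these 3 genes the vector control stood above the rest by 2-fold or more.

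Whole chromosomes differed by far less. Relative to all genes, the median difference was -0.28 over the 529 genes of chromosome 17 and -0.24 over the 636 genes of chromosome 9, and it was 0.20 on chromosome 8, 0.19 on chromosome 18 and 0.17 on chromosome 3. The shift was seen in every bin of 10 Mb with at least 20 genes: all 8 on chromosome 17 and all 12 on chromosome 9 were below the median of all genes, and all 12 on chromosome 8, all 8 on chromosome 18 and all 11 on chromosome 3 were above it. Chromosome 17 held 7 genes higher and 45 lower past 2-fold, and chromosome 9 held 9 and 52. The 5 chromosomes were named after their values were seen. Shifts of this size or larger also separated the knockouts from the parental line. In the exon 3 and exon 2 knockouts the same measure was 0.23 and 0.20 on chromosome 17 and -0.19 and -0.07 on chromosome 9. It was 0.24 and -0.14 on chromosome 8, -0.18 and 0.01 on chromosome 18, and -0.14 and -0.43 on chromosome 3. On chromosome 13 it was -0.47 in the exon 3 and -0.02 in the exon 2 knockout.

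**Figure D3:**
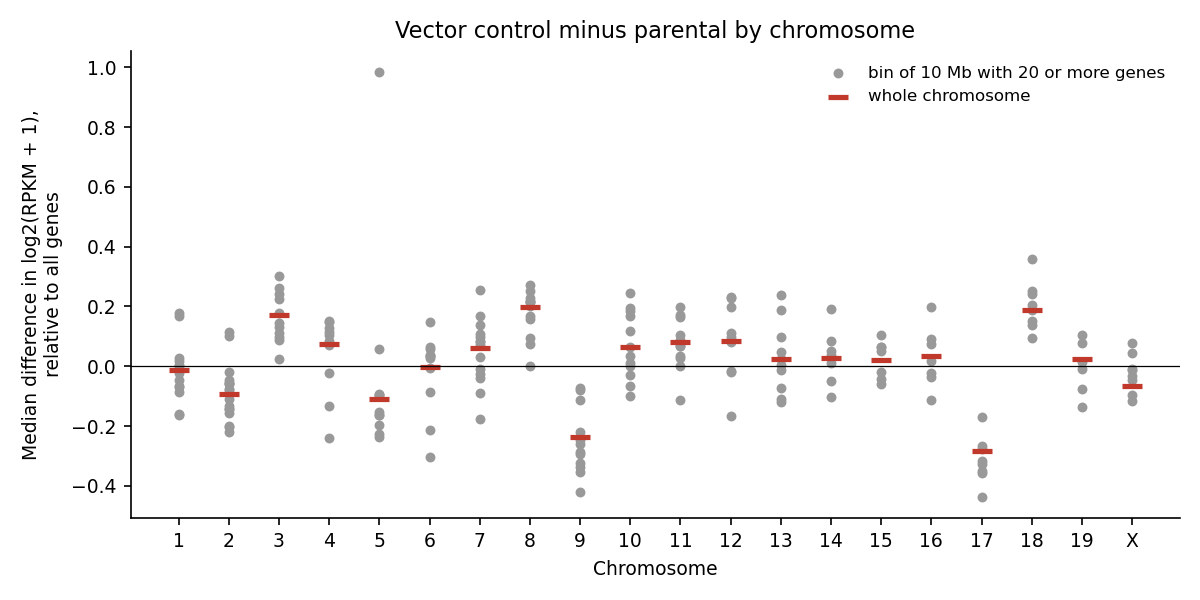
For each chromosome (x axis) the red bar is the median difference in log2(RPKM + 1), vector control minus parental, relative to all genes (y axis), and each grey point is the same for a bin of 10 Mb with 20 or more genes. All points of chromosomes 9 and 17 lie below 0, and the single bin near 0.98 on chromosome 5 is the one that holds that stretch.

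Interferon-stimulated genes were the group with the highest median in the vector control against the parental line, among lists with 10 or more measured members. Of 58 genes on the list 57 passed the filter, 43 of them (75.4%) at least 2-fold higher and 0 lower, where 3.46% of all genes were higher. Their median lay 1.29 above that of all genes, and 53 of the 57 had their highest value in the vector control. In 34 the vector control was at least 2-fold above each of the other 3 libraries. The median member was at 29.9 RPKM in the parental and 83.1 in the vector control line, and at 20.6 and 27.4 after editing of exon 3 and of exon 2.

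Many of these genes carry, just before their start, the paired element that interferon-activated factors bind, written here as GAAANNGAAA and searched on both strands, overlaps allowed, in the 250 bases before the gene start (RefSeq promoters, GRCm38.p6). It was found in 3.46% of 27025 promoters, in 21 of the 43 list members with a promoter entry (48.8%), and in 9.5% of the other genes at least 2-fold higher (23 of 242). Among genes at least 2-fold lower it was in 13 of 428 (3.04%) and among collagen chains in 0 of 16. A match is a description of the letters and not of binding. The stretches of 6 members of different roles are shown because they carry the element, each 5′ to 3′ along the gene with the matched bases in capitals (GAAA in one orientation, TTTC in the other).
Cxcl10, chr5:92349073-92349112, minus strand: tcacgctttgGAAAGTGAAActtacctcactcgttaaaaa
Oas1a, chr5:120907526-120907565, minus strand: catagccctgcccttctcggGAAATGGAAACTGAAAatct
Gbp3, chr3:142559989-142560028, plus strand: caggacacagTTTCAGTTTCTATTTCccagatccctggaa
Ifit1, chr19:34640775-34640814, plus strand: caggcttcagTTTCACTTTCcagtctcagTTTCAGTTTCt
Irgm1, chr11:48871421-48871460, minus strand: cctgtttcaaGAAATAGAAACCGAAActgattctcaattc
Isg15, chr4:156200867-156200906, minus strand: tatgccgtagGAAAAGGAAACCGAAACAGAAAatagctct

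The roles that follow were grouped after the values were seen. Of 5 sensors of foreign nucleic acid, 4 were at least 2-fold higher. Zbp1, which senses left-handed nucleic acid, was at 4.83, 33.2, 4.51 and 11.1 RPKM, and Ifih1, the long double-stranded RNA sensor, at 14.3, 35.5, 9.30 and 12.5. Eif2ak2, the kinase that halts translation on double-stranded RNA, was at 29.8, 49.0, 8.04 and 13.6 RPKM and did not reach 2-fold. Tlr3, an endosomal RNA receptor that is not on the list, was at 1.92, 11.5, 0.987 and 1.16 RPKM.

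Among the 5 transcription factors of the pathway, 2 were at least 2-fold higher, and Irf7 was at 95.7, 367, 152 and 175 RPKM. Stat2 (29.1, 58.8, 20.6 and 26.2 RPKM), Irf9 and Irf1 were under 2-fold, though all 5 had their highest value in the vector control.

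The antiviral effectors followed the same order. All 12 interferon-inducible GTPases were at least 2-fold higher, Iigp1 at 11.8, 70.0, 4.70 and 8.10 RPKM and Gbp3 at 46.7, 187, 17.01 and 31.5, while Mx1, a GTPase that blocks influenza virus, was lower in level at 0.579, 4.49, 0.642 and 2.52. Of 4 Ifit genes, which bind foreign RNA ends, 3 were higher, with Ifit1 at 61.3, 217, 29.1 and 50.2 RPKM. Isg15, a ubiquitin-like tag put on proteins, was at 446, 1223, 445 and 521 RPKM, and Usp18, which takes the tag off, at 35.8, 159, 24.9 and 59.9. Parp9, Parp12, Parp14 and Dtx3l were all higher, at ratios from 2.18 for Dtx3l to 4.12 for Parp14.

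The oligoadenylate synthetases, which make the signal that activates RNase L, did not move as one. Oas1a was at 15.7, 73.8, 17.8 and 24.6 RPKM, so that the vector control stood alone, whereas Oas3 was at 39.7, 41.4, 26.3 and 64.7. Oasl1 was at 27.5, 144, 112 and 121 RPKM, with the parental line alone at the low end. Rsad2, the antiviral enzyme viperin, had a like order at 36.1, 132, 85.9 and 99.3 RPKM. Across all genes the parental line was at least 2-fold below all 3 others in 22 genes (0.201%), and 2 of them were on this list.

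Cxcl10, a chemokine that draws T cells, was at 94.6, 609, 60.5 and 105 RPKM, a ratio of 6.43 (counting interval 5.98 to 6.92). Runs of neighbouring genes showed the same families: the interferon-inducible cluster from Ifi204 (3.77, 26.9, 1.09 and 5.76 RPKM) to Ifi205 on chromosome 1, a run of 5 from Irgm1 to Ifi47 on chromosome 11, and 4 neighbours from Gbp5 to Gbp2 on chromosome 3. Several of these are close copies of each other whose reads the counting may have split. The Schlafen genes Slfn2 (11.6, 33.6, 2.85 and 7.24 RPKM), Slfn8 and Slfn9 were also higher together, and were added after their values were seen.

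**Figure D4:**
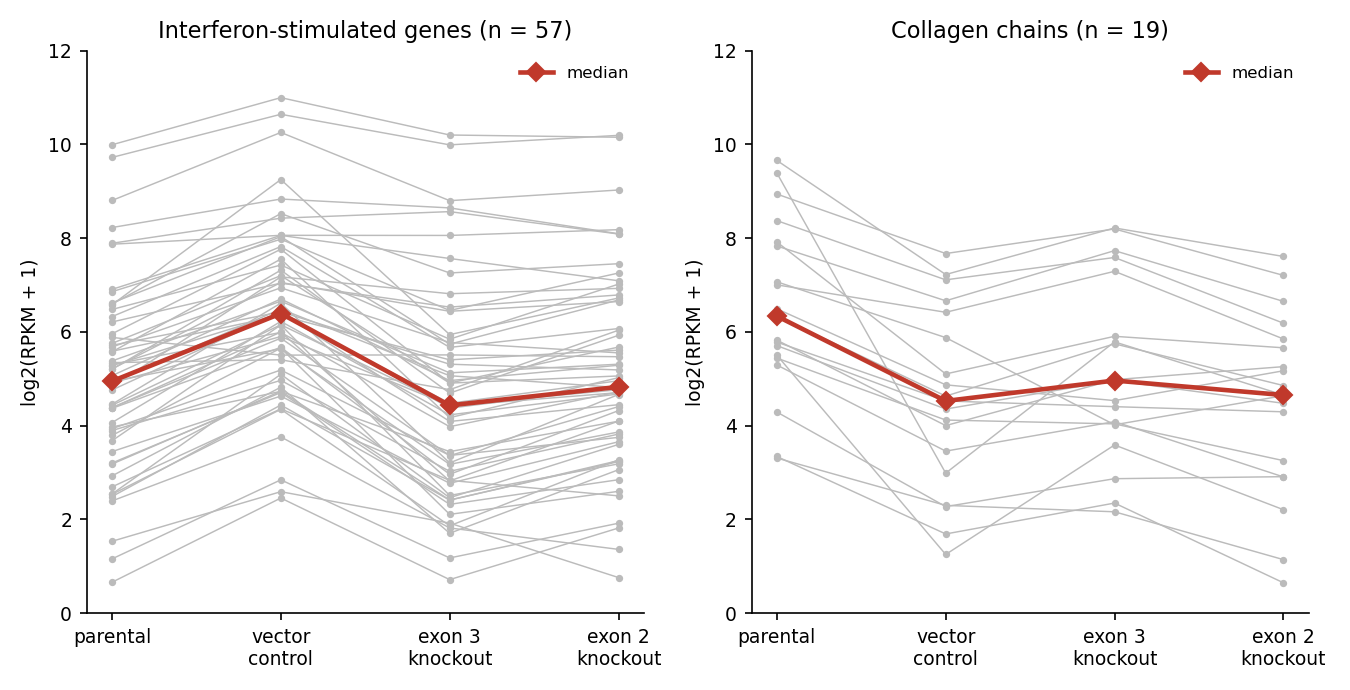
Each grey line is 1 gene, with log2(RPKM + 1) on the y axis in the parental, vector control, exon 3 knockout and exon 2 knockout libraries, and the red line joins the medians. The 57 interferon-stimulated genes peak in the vector control, and the 19 collagen chains are highest in the parental line in all but 1 case.

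The interferons themselves were near 0. None of 7 interferon genes passed the filter: Ifng, Ifna2, Ifnl2 and Ifnl3 had no read in any library, and Ifnb1 had 5 parental reads, 12 in the vector control and 0 in both knockouts. Of the 7 receptor and kinase genes upstream, 0 were 2-fold higher and 1 was lower, where 3.46% and 5.15% of all genes were. Ifnar1 was at 14.4, 18.4, 14.01 and 14.6 RPKM, and Ifngr1, a chain of the interferon gamma receptor, at 87.9, 34.8, 43.3 and 61.8. Antigen presentation by MHC class I, which interferon also raises, had 5 of 25 genes higher (20%) and 0 lower, with a median 0.38 above all genes. The immunoproteasome subunit Psmb10 was at 47.6, 159, 93.3 and 62.9 RPKM, but Psmb9 was higher in the exon 3 knockout than in the vector control (29.1, 65.3, 91.9 and 52.1 RPKM). H2-Q7, a class I gene, had the same order at 22.01, 56.1, 72.0 and 27.3 RPKM.

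Among chemokines and cytokines 6 of 20 (30%) were higher and 2 (10%) lower, against 3.46% and 5.15% of all genes, and Cxcl10 is one of the 6. Cxcl1, which draws neutrophils, was at 10.7, 62.5, 12.3 and 8.41 RPKM, Il15, a lymphocyte growth factor, at 3.54, 20.4, 4.53 and 5.28, and Ccl2, which draws monocytes, at 104, 225, 50.8 and 35.2. Cxcl14 went the other way, at 3.08 RPKM in the parental and 0.0642 in the vector control line.

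Collagen chains had the lowest median of those lists in the vector control. Of 44 genes, 19 passed the filter and 18 of them (94.7%) were at least 2-fold lower, where 5.15% of all genes were, with a median 1.79 below that of all genes. All but 1 had their highest value in the parental line. Here the knockouts sided mostly with the vector control: the median chain was at 79.9 RPKM in the parental and 22.1 in the vector control line, and at 30.2 and 24.2 after editing of exon 3 and of exon 2. In 11 of the 19 the parental line was at least 2-fold above each of the other 3, where 1.51% of all genes were. Collagens are long and rich in G and C, and across genes the difference had a Spearman rank correlation of -0.17 with the G and C content of the coding sequence (10837 genes) and -0.25 with length, as a description, since genes are not independent. After a correction of the differences for both, 11 of the 19 were still past 2-fold and the median was -1.30.

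Col1a1 (chr11:94936224-94953042, plus strand), a chain of type I collagen, was at 670, 6.93, 54.3 and 24.2 RPKM, and the parental level was 96.7 times that of the vector control (counting interval 90.1 to 104). Its partner chain Col1a2 was at 808, 149, 297 and 194 RPKM, a factor of 5.43, so the 2 chains of one protein differed unequally. Col3a1, of the fibrils of soft tissue, was at 133, 57.9, 15.2 and 23.9 RPKM, which puts the vector control above both knockouts. Col6a3, of beaded filaments, was at 44.4, 1.38, 11.03 and 3.62 RPKM, while its partners Col6a1 (491, 203, 293 and 147 RPKM) and Col6a2 differed by less. Col4a2, of basement membranes, was the exception of the family at 127, 84.6, 156 and 56.7 RPKM.

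The machinery that makes collagen differed by step. The list of fibrillar collagen production had 16 of 32 genes lower (50%, where 5.15% of all genes were) and 0 higher. Of 5 lysyl oxidases, which cross-link the fibrils, 3 were lower and in all 3 the vector control stood alone: Loxl1 was at 191, 9.69, 144 and 148 RPKM, Lox at 83.5, 17.8, 39.2 and 71.2, and Loxl3 at 331, 62.6, 151 and 218. Adamts2, which trims the amino end of the chain, was at 14.4, 0.357, 6.47 and 5.59 RPKM. P4ha3, a prolyl hydroxylase subunit, was at 18.8, 1.09, 2.80 and 2.28 RPKM. By contrast the chaperone Serpinh1 was at 872, 854, 1215 and 847 RPKM and P4hb, the other prolyl hydroxylase subunit, at 1082, 964, 1576 and 735, and 0 of 3 lysyl hydroxylases was past 2-fold.

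Other matrix groups were lower as well, where 5.15% of all genes were lower and 3.46% higher. In basement membrane genes 12 of 18 were lower (66.7%) and 0 higher, with a median 1.40 below all genes. Lama1, a laminin chain, had 889 parental reads and 1 in the vector control, and Lamc1 was at 113, 36.8, 55.2 and 37.8 RPKM. Fbln2, a fibulin of elastic matrix, was at 95.3, 2.72, 58.1 and 34.8 RPKM. Among matricellular proteins 12 of 21 were lower (57.1%) and 1 higher (4.76%). Postn was at 238, 37.9, 62.4 and 87.9 RPKM, Spp1 (osteopontin) at 1111, 268, 257 and 622, and Ctgf, a target of Yap, at 149, 24.6, 116 and 94.5. Fn1 was at 606, 164, 414 and 340 RPKM, so that for Ctgf, Fn1 and Fbln2 the vector control lay apart from the rest, unlike Postn.

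Receptors and proteases of the matrix had fewer members past 2-fold. Lower were 37.5% of integrins and 33.3% of matrix metalloproteinases and related genes, where 5.15% of all genes were. Among integrins 6 of 16 were lower, with the collagen-binding chains Itga10 at 64.5, 3.79, 33.5 and 10.6 RPKM and Itga11 at 12.99, 0.177, 6.10 and 1.48. Of matrix metalloproteinases and related genes 7 of 21 were lower, with Mmp19 at 40.5, 1.39, 7.37 and 6.80 RPKM and Adam12 at 13.4, 0.247, 0.880 and 0.591. In the serpin and plasminogen list 4 of 17 were lower (23.5%) and 1 higher (5.88%, where 3.46% of all genes were). Serpine2, a thrombin inhibitor, was at 35.1, 4.49, 3.89 and 30.2 RPKM, which paired the vector control with the exon 3 knockout and the parental line with the exon 2 knockout. Serpinf1 was at 683, 69.1, 329 and 491 RPKM.

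The single genes with the largest difference in favour of the parental line were seldom on a list. Angptl7, a secreted angiopoietin-like protein, was at 189, 0.233, 15.6 and 29.6 RPKM, the largest difference in either direction (-7.27), from 6000 parental reads and 6 in the vector control. Ctla2a, a cysteine protease inhibitor, was at 177, 0.476, 28.7 and 11.2 RPKM, and Crabp1, which binds retinoic acid, at 629, 9.42, 76.7 and 142. In all 3 genes the parental line was highest, the vector control lowest and both knockouts lay between. Msln, a surface protein of mesothelium, was at 323, 18.3, 107 and 125 RPKM, with the same order, and so was Hspb7 at 121, 3.09, 57.9 and 14.3. Fabp4, a fatty acid carrier of fat cells (90.9, 2.68, 4.73 and 5.61 RPKM), and Rcan2, a calcineurin regulator (60.0, 1.54, 3.59 and 6.74 RPKM), instead had the parental line standing alone. Jph2 (17.3, 0.113, 4.01 and 1.75 RPKM) and Ace, the angiotensin converting enzyme (30.2, 0.754, 6.45 and 2.23 RPKM), were lower as well.

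The signalling groups below had more members lower than higher, where 5.15% of all genes were lower and 3.46% higher. The Tgf-beta and immediate early lists exceeded both shares. In the Wnt pathway 8 of 27 genes (29.6%) were lower and 0 higher. The ligand Wnt5a was at 27.0, 2.54, 4.93 and 10.01 RPKM and the inhibitor Dkk2 at 50.2, 4.04, 0.104 and 0.380, while Wnt10a was at 15.8, 2.198, 7.51 and 17.2. Among receptor tyrosine kinases and ligands 7 of 40 were lower (17.5%) and 1 higher (2.5%). Egfr was at 11.7, 2.23, 6.62 and 6.42 RPKM and Mertk, which helps cells engulf debris, at 30.5, 3.09, 10.6 and 13.2. In the Tgf-beta and Bmp list 6 of 36 were lower (16.7%) and 3 higher (8.33%), and Id2, an inhibitor of differentiation factors, was at 3.25, 17.1, 3.37 and 2.64 RPKM. Of the immediate early list 4 of 37 were higher (10.8%) and 7 lower (18.9%). Fos was at 2.52, 13.8, 7.04 and 10.4 RPKM and Ier3 at 70.3, 260, 71.4 and 94.3. The feedback inhibitors Spry1 (22.8, 5.77, 13.9 and 12.96 RPKM) and Dusp5 (10.8, 2.39, 5.46 and 4.70) were lower. Irs2, an adaptor of the insulin receptor, was at 17.9, 2.35, 7.08 and 10.1 RPKM.

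Cell identity genes were mixed, and are read against 3.46% of all genes higher and 5.15% lower. Contractile genes had 4 of 20 higher (20%) and 2 lower (10%), with Acta2, smooth muscle actin, at 55.2, 420, 178 and 252 RPKM and Tagln at 29.9, 115, 14.8 and 122. Epithelial and keratin genes had 5 of 16 lower (31.2%) and 0 higher, and mesenchymal markers 9 of 26 lower (34.6%) and 3 higher (11.5%). Cdh3, an epithelial cadherin, was at 48.8, 2.18, 19.7 and 32.9 RPKM. Among transcription factors of the epithelial to mesenchymal transition 2 of 17 were higher (11.8%) and 0 lower, and Twist2 was at 13.3, 37.7, 31.2 and 19.9 RPKM. Most of that list leaned lower, with 12 of the 17 below the median of all genes and a list median 0.20 below it. Pdpn, a mucin-type glycoprotein, was at 33.0, 3.34, 1.48 and 2.74 RPKM and Tspan11 at 21.01, 0.413, 1.68 and 0.467, with the parental line alone at the top in both.

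Metabolic and stress groups are read against 3.46% of all genes higher and 5.15% lower. Among cholesterol synthesis genes 5 of 32 (15.6%) were lower and 28 had their highest value in the parental line. Scd1, a fatty acid desaturase, was at 252, 112, 108 and 88.6 RPKM. Glycolysis genes had 3 of 24 higher (12.5%) and 2 lower (8.33%). Hypoxia genes had 7 of 26 lower (26.9%) and 0 higher, with Adm, a vasodilator peptide, at 212, 29.7, 88.6 and 74.9 RPKM. Nrf2 antioxidant genes had 6 of 34 higher (17.6%) and 1 lower, and Nqo1 (17.7, 92.5, 75.3 and 16.1 RPKM) and Hmox1 (74.1, 201, 175 and 47.9 RPKM) joined the vector control to the exon 3 knockout. The metallothioneins Mt1 (691, 194, 1064 and 529 RPKM) and Mt2 (877, 313, 1728 and 631 RPKM), which bind zinc and are neighbours on chromosome 8, were lowest in the vector control; they were added after their values were seen.

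Cell cycle genes had 2 of 58 higher (3.45%, against 3.46% of all genes) and 1 lower with a median 0.36 above all genes. Of the 58, 47 lay above the median of all genes and 32 had their highest value in the vector control. Ccnd1 went the other way, at 609, 253, 375 and 532 RPKM. Proteasome subunits had 3 of 37 higher (8.11%) and 0 lower, with a median of 0.51. In mitochondrial ribosomal proteins 0 of 75 were past 2-fold, and in cytosolic ribosomal proteins 1 of 77. Of p53 and its targets 2 of 37 were higher (5.41%) and 0 lower, a share near that of all genes. The S100 family had 0 of 10 higher and 1 lower, S100a16, which rested on 70 parental reads and 2 in the vector control.

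**Figure D5:**
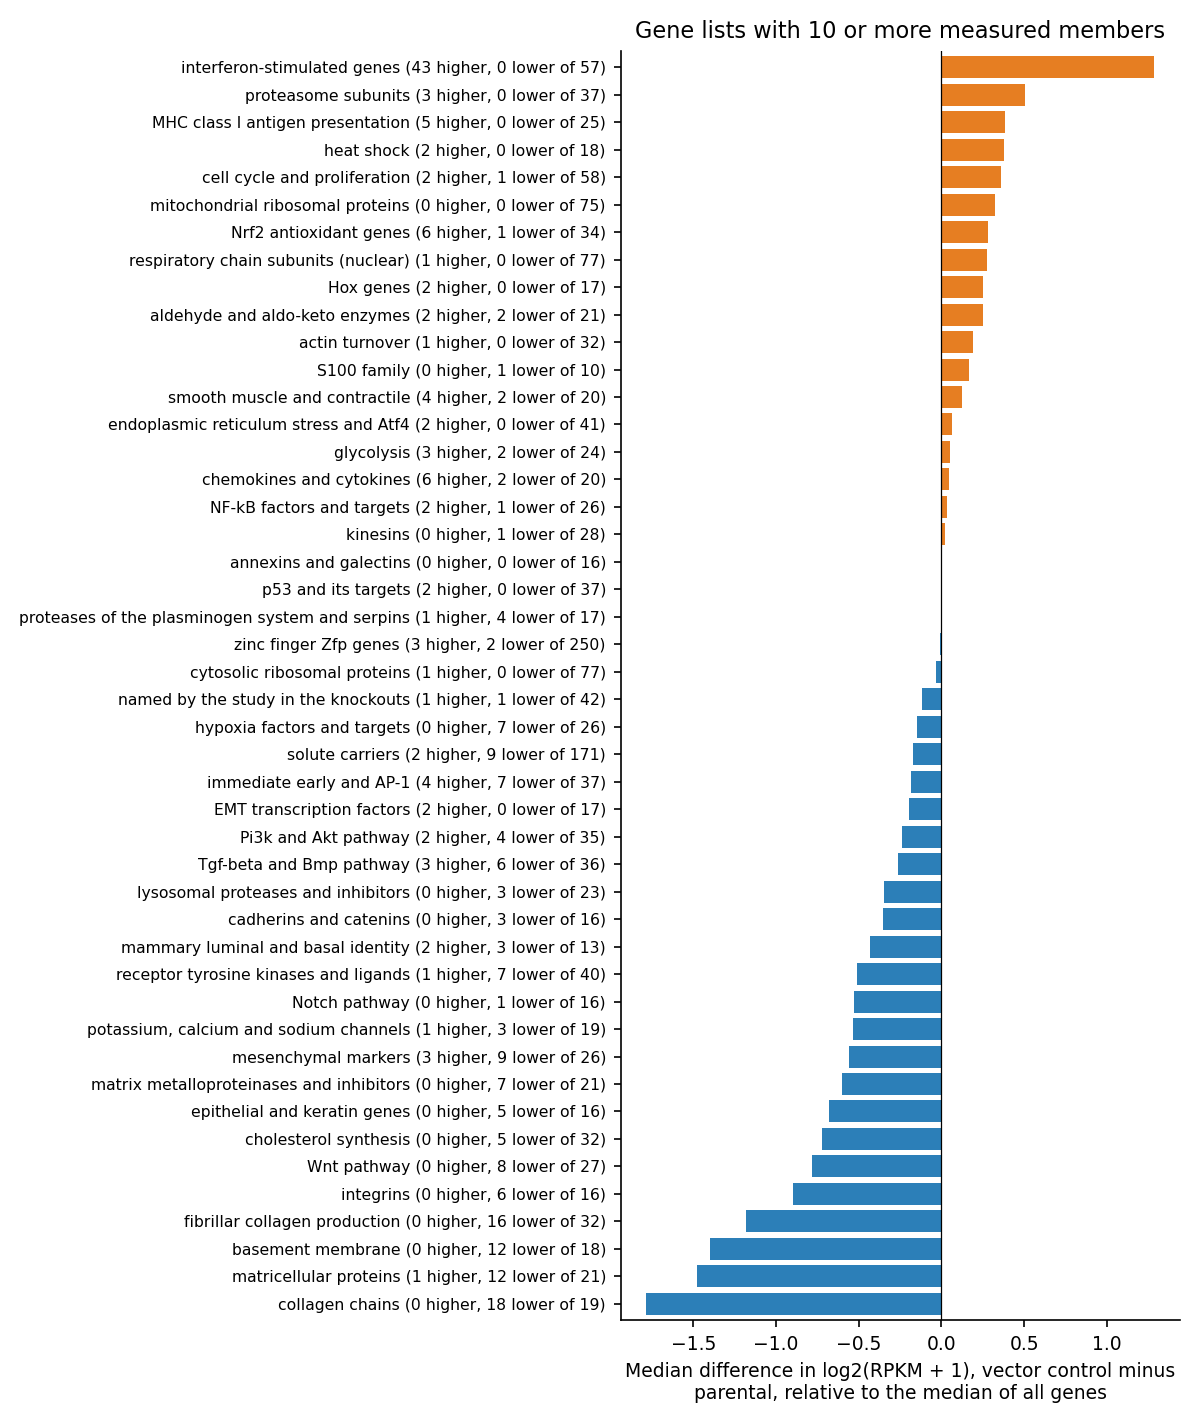
Bars give, for each gene list with 10 or more measured members, the median difference in log2(RPKM + 1), vector control minus parental, relative to all genes (x axis), with the number of members at least 2-fold higher and lower after each name (y axis). Interferon-stimulated genes stand at 1.29 and collagen chains at -1.79, the ends of the range.

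The knockouts placed the 2 directions differently. Among the 378 genes higher in the vector control, both knockouts lay nearer the parental line in 230 and nearer the vector control in 61. Among the 563 lower genes, both lay nearer the parental line in 168 and nearer the vector control in 218. The vector control stood at least 2-fold above all other libraries in 185 genes and below them in 125 (1.14%), and the parental line stood at least 2-fold above them in 165 and below them in 22. For the vector control the balance depends on the scaling. It stood above in 134 and below in 167 after median ratio scaling, and above in 139 and below in 193 after quantile normalization. These counts share the parental and vector control values and so are not independent of each other.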

How the data were processed

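The deposited table held RPKM values of 4 RNA-seq libraries, made by the authors with GSNAP on GRCm38 and base calls from CASAVA 1.8, per the submitters' processing notes and the study. The kit was not one stated to keep strand, so overlapping genes could share reads. Gene symbols were matched to GENCODE M21 (20973 symbols, 99.4%). RPKM values were brought to whole reads (15405 of 15405 genes above 0, within 0.0001) from ratios between libraries and annotated coding lengths. The totals behind RPKM were then 31235456 (parental), 25396254 (vector control), 23474246 and 22472024 (exon 3 and exon 2 knockouts), with the absolute scale resting on those lengths. The reads gave exact (Clopper-Pearson) 95% intervals of the ratio, which cover counting error only, and a floor of 3 reads. A gene read in 1 library only has a minimum count.

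Differences were taken as log2(RPKM + 1), vector control minus parental, over genes with mean RPKM of at least 1 (10151 were left out; the values nearest the limit were 1.0014 and 0.99965). A called gene is at least 2-fold apart on that scale. With 1 library a line no test was made. The 57 gene lists used and the members were chosen with earlier results of these data known. Named genes were S100a4, Col1a1, Krt18 and Serpine2, the 15 largest and 15 smallest differences, up to 4 per list by size of difference (or by level), and 6 per direction in which the parental line or vector control stood farthest from the rest; others are said to have been added, and partner genes of a role were added after their values were seen. A few genes that the rule names, and 1 list, are not reported here. Scripts were tested on simulated data. Python 3.11, numpy, pandas, scipy and matplotlib were used.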

Additional observations from a re-analysis of the deposited data

How the results depend on the processing

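No paired analysis was possible because each line is 1 library. Of 231 named genes, 169 were past 2-fold, 46 of which were under it in at least 1 alternative, and 0 of the differences past 2-fold changed sign. A pseudocount of 5 gave 175 genes higher and 290 lower, and a 3-fold limit 112 and 229. Under that pseudocount the medians relative to all genes were -0.378 for matrix metalloproteinases, -0.470 for the Wnt pathway, -0.342 for receptor tyrosine kinases, -1.372 for collagen chains, -0.178 for chromosome 9 and -0.203 for chromosome 17. Quantile normalization gave 0.195 for respiratory chain subunits, 0.426 for proteasome subunits and 0.065 for Zfp genes. The correction for G and C content and length gave -0.165 for cytosolic and 0.198 for mitochondrial ribosomal proteins, 0.132 for respiratory chain subunits, 0.044 for Zfp genes, 0.099 for chromosome 3 and -1.304 for collagen chains (11 lower). Without the filter the medians were -0.386 for the Wnt pathway, -0.299 for receptor tyrosine kinases, 0.046 for cytosolic and 0.406 for mitochondrial ribosomal proteins, 0.337 for respiratory chain subunits, 0.185 for replication-dependent histones, -0.910 for collagen chains, -0.073 for solute carriers, and 0.259, 0.284, -0.151, -0.197 and 0.276 for chromosomes 3, 8, 9, 17 and 18, with more low-count genes tested. The cause of the other shifts was not tested.

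The vector control stood below all other libraries in 206 genes with a pseudocount of 0.1, 193 after quantile normalization and 37 at 3-fold. It stood above them in 267 with that pseudocount, 139 after quantile normalization and 55 at 3-fold. The parental line stood below them in 46 with that pseudocount and in 3 at 3-fold, and above them in 44 at 3-fold. Leaving out 1 knockout gave 192 to 202 genes with the vector control lowest, 216 to 241 with it highest, 41 to 62 with the parental line lowest and 242 to 250 with it highest, since fewer libraries are compared. Of the interferon-stimulated genes 37 to 44 were higher under the alternatives run for the lists, the median of the chromosome 5 stretch stayed between 3.203 and 5.066 above that of all genes, and the collagen chains kept their direction; the stretch and the chromosomes were examined under alternatives chosen after seeing the data. The ratios of genes with few or no reads in the parental or the vector control line, such as Grm3, Lama1, Mt4 and S100a16, are the least precise.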

Other observations

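Values of named genes not described above are given here. Hist1h1c, a linker histone gene, was at 11.5, 41.04, 19.8 and 18.5 RPKM in the parental, vector control, exon 3 knockout and exon 2 knockout libraries, and H1fx, another, at 1.58, 16.3, 9.62 and 11.9, with the parental line alone at the low end. Hoxb9, a positional identity gene, was at 1.02, 8.94, 5.54 and 0.414 RPKM. Inpp4b, a phosphoinositide phosphatase gene, was at 0.215, 3.50, 0.0429 and 0.0747 RPKM. Aldh1a1, a retinaldehyde dehydrogenase, was at 6.14, 0.314, 3.59 and 7.39 RPKM, and Kcnip1, a potassium channel partner, at 10.4, 0.0856, 1.71 and 3.39. Slco4a1, an organic anion carrier on chromosome 2, was at 12.4, 125, 11.8 and 3.01 RPKM, Kcnj2, a potassium channel, at 0.771, 13.2, 0.861 and 0.311, and Tnnc1, cardiac troponin C, at 2.503, 36.1, 11.5 and 3.48. These 3 and Tmem252 are the 4 of the 15 largest differences that lie outside the chromosome 5 stretch.

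Transcripts encoded by the mitochondrial genome had a median 0.53 below all genes over the 9 that passed the filter, with mt-Nd6 at 460, 221, 238 and 260 RPKM and 7 of the 9 highest in the parental line, while the nuclear-encoded respiratory chain subunits had a median 0.28 above all genes over 77.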
